A study of Drosophila melanogaster with 32 samples.

Results

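Among the genes of Drosophila melanogaster that carry only a CG number as their FlyBase symbol, 23 were high in testes filled with spermatogonia and low in both spermatocyte stages. They were chosen from the RNA-seq counts, scaled to library totals as CPM and averaged over the 2 libraries of a group. A gene was taken when its bam mean was 10 CPM or more and at least 4 times both the 48h and the 72h mean. Of 17559 gene identifiers 6009 had such a symbol, 1857 of these reached the bam minimum, and 23 met all limits. A further 99 genes with another kind of symbol, or with none, met the same limits. The bam, 48h and 72h levels chose these genes, so comparisons among these 3 groups are given as a description. Tests are given for aly, which the choice did not use. The bam, 48h or 72h side of each such test had entered the choice, so no test here is independent of it.

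RNA-seq was made on 8 libraries of whole testes, 2 in each of 4 groups, with 100 pairs of testes from flies under 2 days old per library. The aly group is labelled aly -/- and enriched for mature spermatocytes; these flies grew at 25 C for 10 days and were not heat shocked. The bam group is labelled bam -/- and enriched for spermatogonia, and grew at 22 C for 12 days, also without a heat shock. The 48h and 72h groups were bam -/- flies with a Bam transgene behind a heat shock promoter, grown at 22 C for 9 days, shocked at 37 C for 30 min and then kept at 25 C for 48 or 72 h; their labels name young spermatocytes for 48h and mature ones for 72h. Temperature, heat shock, age and genotype therefore differ together with stage and cannot be told apart. In whole testes, fewer cells of a type and less RNA per cell cannot be told apart either. Open chromatin was measured by ATAC-seq in testes of younger flies, under 1 day old, of the 4 groups, of topi -/- flies (25 C for 10 days, no shock) and of bam -/- flies without the transgene that were shocked and kept for 48 h, here called the heat shock control.

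In the fly testis, a germ cell divides a fixed number of times as a spermatogonium, and the Bam protein then switches it from mitotic division to growth and meiosis as a spermatocyte. Without Bam, spermatogonia keep dividing. The spermatocyte then turns on a large programme of genes, many of which need tMAC, the testis meiotic arrest complex, of which Aly and Topi are parts; without either, spermatocytes arrest before the meiotic divisions. The genes described here go the other way, from high to low, and little is known of most of them. RefSeq lists other names for some: Tdrd5l for CG15930, Sip1 for CG10939, DmRH11 for CG8611, both ACAD11 and ACADS for CG4860, and METTL19 for CG9386.

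Library totals lay between 20064489 and 28984275 counts. Between the libraries of a group, 7.31% to 7.69% of genes differed in a chi-square test with a threshold of 0.05, so the spread between libraries was close to counting error; nothing in the labels says that they were separate cultures, and p-values measure this spread, which may be technical. bam itself had 99.7 and 101 CPM in aly, 93.4 and 95.5 CPM in bam, 32.9 and 32.5 CPM at 48h and 12.2 and 10.7 CPM at 72h. aly had 74.9 and 72.0 CPM in aly, 37.1 and 37.3 CPM in bam, 206 and 209 CPM at 48h and 87.3 and 85.0 CPM at 72h, so both transcripts were counted in their own mutants. The 20 spermatocyte and spermatid markers summed to 6382 and 6359 CPM in aly, 243 and 240 CPM in bam, 5438 and 5406 CPM at 48h and 11565 and 11545 CPM at 72h, so bam was lowest and 72h highest. Markers of somatic cells moved with the groups as well. The 16 measured hub and cyst cell markers summed to 881 and 875 CPM in aly, 1853 and 1848 CPM in bam, 811 and 799 CPM at 48h and 439.9 and 443 CPM at 72h. The 15 fat body and hemocyte markers summed to 674 and 663 CPM in aly, 2558 and 2601 CPM in bam, 1135 and 1148 CPM at 48h and 716 and 713 CPM at 72h. The 13 accessory gland and ejaculatory bulb markers summed to 98.2 and 95.8 CPM in aly, 106 and 99.5 CPM in bam, 651 and 641 CPM at 48h and 2211 and 2155 CPM at 72h. The 15 sheath muscle markers summed to 1240 and 1239 CPM in aly, 2181 and 2166 CPM in bam, 1210 and 1215 CPM at 48h and 1241 and 1236 CPM at 72h. No marker of these lists was at 0 in all groups. Mitochondrial transcripts held 17.7% and 18.1% of counts in aly, 11.4% and 11.5% in bam, 14.1% and 14.5% at 48h and 18.6% and 19.1% at 72h, so they took the smallest share of the CPM total in bam, where the 23 genes were high. The part of these markers and shares in the results below was not tested.

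Summed over the 23 genes, the level was 245 and 248 CPM in aly, 1990 and 1987 CPM in bam, 392 and 386 CPM at 48h and 345 and 343 CPM at 72h. CG13185 held 34.0% of the sum in bam. Without it the sum was 172 and 173 CPM in aly, 1310 and 1314 CPM in bam, 256 and 251 CPM at 48h and 225 and 228 CPM at 72h. The choice of the genes fixed that bam lay above 48h and 72h in this sum, but not where aly lay. Between the bam libraries, the coefficient of variation of a gene had a median of 2.33% and reached 9.91%. Across the genes, the 48h mean was 9.60% to 24.9% of the bam mean, with a median of 20.1%, and the 72h mean was 9.55% to 23.5%, with a median of 18.1%.

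**Figure D1:**
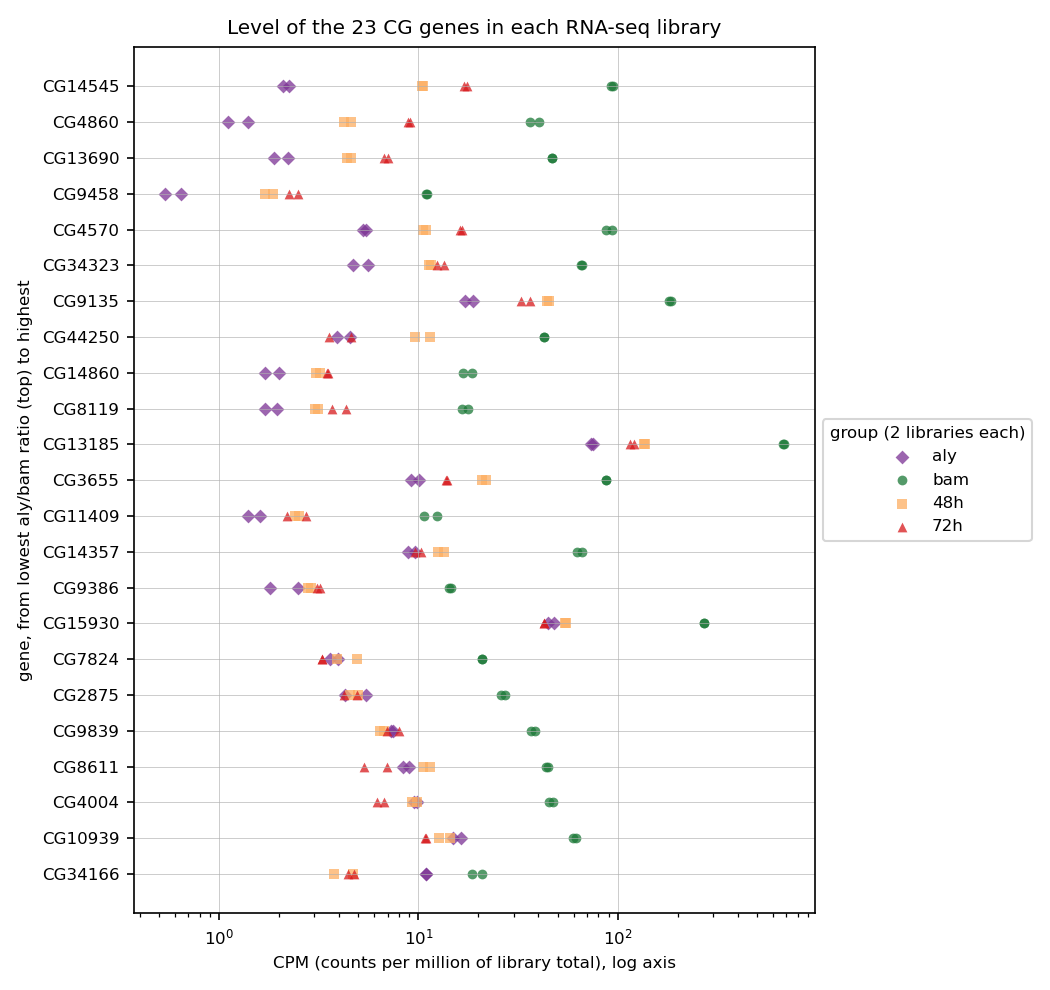
CPM (log axis) of the 23 genes in each of the 8 RNA-seq libraries, 2 points per group and gene, sorted from the lowest aly/bam ratio at the top (CG14545, 2.31%) to the highest at the bottom (CG34166, 55.2%). The bam points lie to the right of all others for every gene, as the choice of the genes requires for 48h and 72h but not for aly.

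Genes with a known or likely role in making or handling RNA come first. CG13185 (FBgn0033661, chromosome 2R from 11867876 to 11885585, build dm6) is related to midasin, known from yeast and human as a large ATPase that matures the ribosomal large subunit. It had 73.3 and 75.3 CPM in aly, 680 and 673 CPM in bam, 137 and 136 CPM at 48h and 120 and 115 CPM at 72h. Its libraries thus formed separate steps, with bam highest, the spermatocyte stages close together and aly lowest.

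CG8611 (FBgn0027602, X from 17413267 to 17422145) encodes a protein listed as an RNA helicase. It had 8.92 and 8.38 CPM in aly, 44.9 and 43.5 CPM in bam, 11.4 and 10.6 CPM at 48h and 5.35 and 6.97 CPM at 72h, so aly lay between the stages. CG9386 (FBgn0037708, 3R from 9553696 to 9555408), listed as a member of the METTL methyltransferase family, had 1.79 and 2.50 CPM in aly, 14.2 and 14.6 CPM in bam, 2.78 and 2.90 CPM at 48h and 3.11 and 3.22 CPM at 72h. CG15930 or Tdrd5l (FBgn0029754, X from 5315130 to 5317295) encodes a Tudor domain protein known in Drosophila to promote male identity of germ cells. Its values were 44.8 and 47.7 CPM in aly, 272 and 272 CPM in bam, 54.6 and 54.8 CPM at 48h and 42.6 and 42.5 CPM at 72h. All 3 genes had aly close to the spermatocyte stages on this scale and far below bam.

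CG13690 (FBgn0031252, 2L from 418434 to 419652) is related to the catalytic subunit of human ribonuclease H2, which removes RNA from DNA. It had 1.89 and 2.23 CPM in aly, 46.8 and 46.7 CPM in bam, 4.60 and 4.38 CPM at 48h and 7.04 and 6.72 CPM at 72h. CG4860 (FBgn0037999, 3R from 12219881 to 12221464) is listed as ACAD11 and as ACADS, names of acyl-CoA dehydrogenases, which are enzymes of fatty acid breakdown. It had 1.40 and 1.11 CPM in aly, 36.5 and 40.2 CPM in bam, 4.21 and 4.59 CPM at 48h and 8.83 and 9.07 CPM at 72h. Both fell furthest at 48h, were higher again at 72h without overlap of the libraries, and were lowest in aly. CG10939 or Sip1 (FBgn0010620, 2R from 17394593 to 17405171), a scaffold protein with PDZ domains, had 16.3 and 14.9 CPM in aly, 61.8 and 59.6 CPM in bam, 14.4 and 12.7 CPM at 48h and 10.8 and 10.9 CPM at 72h, with aly above both stages.

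For the other genes no role is given here. By the smaller of the bam/48h and bam/72h ratios, the largest falls among all 23 genes were those of CG13690 (6.79), CG2875 (5.57), CG4570 (5.53), CG14545 (5.45) and CG34323 (5.07). CG14545 (FBgn0040602, 3R from 25850410 to 25851291) had 2.24 and 2.09 CPM in aly, 94.6 and 93.0 CPM in bam, 10.5 and 10.5 CPM at 48h and 16.9 and 17.6 CPM at 72h. CG4570 (FBgn0037844, 3R from 10856807 to 10858066) had 5.48 and 5.30 CPM in aly, 87.3 and 94.0 CPM in bam, 10.5 and 10.9 CPM at 48h and 16.6 and 16.2 CPM at 72h. These 2 genes had the same order of groups as CG13690 and CG4860. CG44250 (FBgn0265185, 2R from 12950404 to 12952293) had the reverse order of the stages, with 4.54 and 3.92 CPM in aly, 42.5 and 42.5 CPM in bam, 9.66 and 11.5 CPM at 48h and 4.57 and 3.55 CPM at 72h. CG34166 (FBgn0085195, 2L from 14743193 to 14743879) stood apart in aly, with 10.9 and 10.9 CPM there, 20.9 and 18.5 CPM in bam, 4.67 and 3.76 CPM at 48h and 4.76 and 4.45 CPM at 72h.

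Besides CG9135 and CG34323, whose values follow with those of aly, 10 genes remain, namely CG3655, CG14357, CG4004, CG9839, CG2875, CG7824, CG14860, CG8119, CG11409 and CG9458. The highest of these 10, CG3655 (FBgn0040397, X from 1073041 to 1134896), had 9.22 and 10.1 CPM in aly, 87.3 and 87.2 CPM in bam, 21.7 and 20.9 CPM at 48h and 13.9 and 13.8 CPM at 72h, a further step down at each stage. CG14357 (FBgn0038204, 3R from 14111151 to 14112166) had 9.67 and 8.91 CPM in aly, 62.8 and 65.9 CPM in bam, 13.4 and 12.5 CPM at 48h and 9.65 and 10.3 CPM at 72h. CG2875 (FBgn0029672, X from 3571456 to 3573622) had 4.29 and 5.48 CPM in aly, 25.9 and 27.2 CPM in bam, 4.56 and 4.97 CPM at 48h and 4.25 and 4.91 CPM at 72h, so that aly and both stages lay within one range. The lowest, CG9458 (FBgn0037765, 3R from 9818914 to 9819877), had 0.648 and 0.535 CPM in aly, 11.0 and 10.9 CPM in bam, 1.85 and 1.69 CPM at 48h and 2.24 and 2.47 CPM at 72h. In every one of the 23 genes both bam libraries lay above both aly libraries. The share of all genes with this separation was not counted, while edgeR called 40.5% of all genes lower in aly than in bam. The bam libraries had also entered the choice of the genes.

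The limits cut through a continuous range. Just inside the fold limit lay CG8611 (4.02 times), CG44250 (4.02 times) and CG9135 (4.09 times), and just outside it lay CG6324 (3.99 times), CG1737 (3.90 times) and CG18528 (3.84 times), each by the smaller of the ratios. Just inside the bam minimum lay CG9458, CG11409 and CG9386, at 10.9, 11.5 and 14.4 CPM. CG44532, CG43295 and CG30403 lay just outside it, at 9.95, 8.00 and 7.82 CPM.

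The aly libraries played no part in the choice, and asked whether these transcripts are also low in spermatocytes that arrest for want of tMAC. All 23 genes were lower in aly than in bam (edgeR's quasi-likelihood test with Benjamini-Hochberg adjustment over 13495 genes), against 40.5% of all genes tested that were lower. By 2-fold or more 22 of the 23 were lower, against 25.3% of all genes. None was higher in aly, against 41.7% of all genes higher and 29.2% higher by 2-fold or more. The median log2 fold change of the 23 genes was -3.26, beside 0.01 over all genes tested. The bam libraries entered both this comparison and the choice of the genes, which asked for a high bam level. The shares of all genes carry no such limit. These counts and the p-values against bam are therefore not independent of the choice, and describe where aly lay. The aly mean was 2.31% to 55.2% of the bam mean, with a median of 11.1%, while the 1834 other CG genes with a bam mean of 10 CPM or more had a median of 96.4% in aly, 100.5% at 48h and 59.0% at 72h.

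The lowest aly/bam ratios were those of CG14545 (log2 fold change -5.52 ± 0.08 SE), CG4860 (-5.02 ± 0.12), CG13690 (-4.58 ± 0.10), CG9458 (-4.29 ± 0.18) and CG4570 (-4.16 ± 0.07), with edgeR adjusted p between 9.92e-33 and 3.97e-20. In aly these rested on few reads, such as 45 and 47 counts for CG14545, 28 and 25 for CG4860 and 13 and 12 for CG9458. At the other end stood CG34166, lower in aly by 1.92-fold (log2 fold change -0.94 ± 0.09 SE, edgeR adjusted p = 3.2e-11), and then CG10939 (4.14-fold lower), CG4004 (5.08-fold), CG8611 (5.42-fold) and CG9839 (5.44-fold). CG34166 was the single gene of the 23 that was not 2-fold or more lower in aly, but without the second bam library its log2 fold change was -1.02 and all 23 were past 2-fold. Its neighbours on the chromosome, CG42586 and CG42681, averaged 0.29 and 0.092 CPM in aly, against 0.167 and 0.218 CPM in bam.

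Set against the spermatocyte stages, aly was more often the lower one. Against 72h, 16 of the 23 genes were lower in aly and 4 higher, beside 45.9% and 42.2% of all genes tested. By 2-fold or more 9 were lower and 1 higher, beside 33.6% and 22.1%, so the lower count at this limit was near the share of all genes. With library size alone as the scaling, 13 were lower and 5 higher in aly than at 72h, beside 5549 and 6501 of the 13495 genes. Against 48h, 16 were lower and 3 higher, beside 42.8% and 39.8% of all genes, and by 2-fold or more 8 were lower and 1 higher, beside 24.5% and 15.7%. The count of genes higher than at 48h was 1, that of CG34166, without the filter on low counts and without the first aly, the first bam or either 48h library. The count of genes higher than at 72h was 2 by DESeq2. The median log2 fold change of the 23 genes was -0.78 against 72h, beside -0.07 over all genes, and -0.64 against 48h, beside -0.04. These comparisons share the aly libraries, and the 48h and 72h libraries had set an upper limit on the level of each gene when the genes were chosen.

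In 6 genes aly was lower by 2-fold or more than both stages: CG14545, CG4860, CG9458, CG13690, CG34323 and CG9135. The share of all genes that lay this far below both stages was not counted. Taken singly, the shares were 33.6% against 72h and 24.5% against 48h. CG14545 was 9.30-fold lower in aly than at 72h (log2 fold change -3.22 ± 0.11 SE, edgeR adjusted p = 1.07e-22) and 4.50-fold lower than at 48h (-2.17 ± 0.12, adjusted p = 9.57e-17). CG4860 was 8.37-fold lower in aly than at 72h and 3.29-fold lower than at 48h. CG9135 (FBgn0031769, 2L from 6050800 to 6053877) had 18.8 and 17.2 CPM in aly, 184 and 181 CPM in bam, 45.1 and 44.2 CPM at 48h and 32.7 and 36.2 CPM at 72h, and was lower in aly than at 72h (log2 fold change -1.17 ± 0.06 SE) and than at 48h (-1.21 ± 0.06). CG34323 (FBgn0085352, X from 12070437 to 12071263) had 5.58 and 4.72 CPM in aly, 65.2 and 66.0 CPM in bam, 11.5 and 11.2 CPM at 48h and 13.4 and 12.5 CPM at 72h. In all 4 of these genes the aly libraries lay below every other library.

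CG34166 was higher in aly than at both stages under every alternative run. It was 2.02-fold higher in aly than at 72h (log2 fold change 1.02 ± 0.12 SE, edgeR adjusted p = 2.58e-09) and 2.78-fold higher than at 48h (1.48 ± 0.11, adjusted p = 3.87e-13). CG10939 was 1.23-fold higher in aly than at 72h (0.29 ± 0.08, adjusted p = 0.00202) and 1.24-fold higher than at 48h (0.30 ± 0.08, adjusted p = 0.000753), but these calls did not hold throughout. Against 72h its DESeq2 adjusted p was 0.0544. Against 48h its edgeR adjusted p was 0.355 without the filter, 0.594 without the first aly library, 0.221 without the first bam library, 0.062 without the first 48h library and 0.804 without the second. CG8611 and CG9839 were called in opposite directions against the stages, each by less than 1.25-fold, and each of these calls was lost when some single library was left out. CG2875 (log2 fold change -0.13 against 72h, 95% interval -0.41 to 0.15, and 0.14 against 48h, -0.13 to 0.41) and CG7824 (-0.03, -0.34 to 0.28, and -0.11, -0.39 to 0.17) were called against neither stage. CG15930 was called lower in aly than at 72h (log2 fold change -0.10 ± 0.04), but with library size alone as the scaling it was called higher (0.12), so no direction is given for it.

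**Figure D2:**
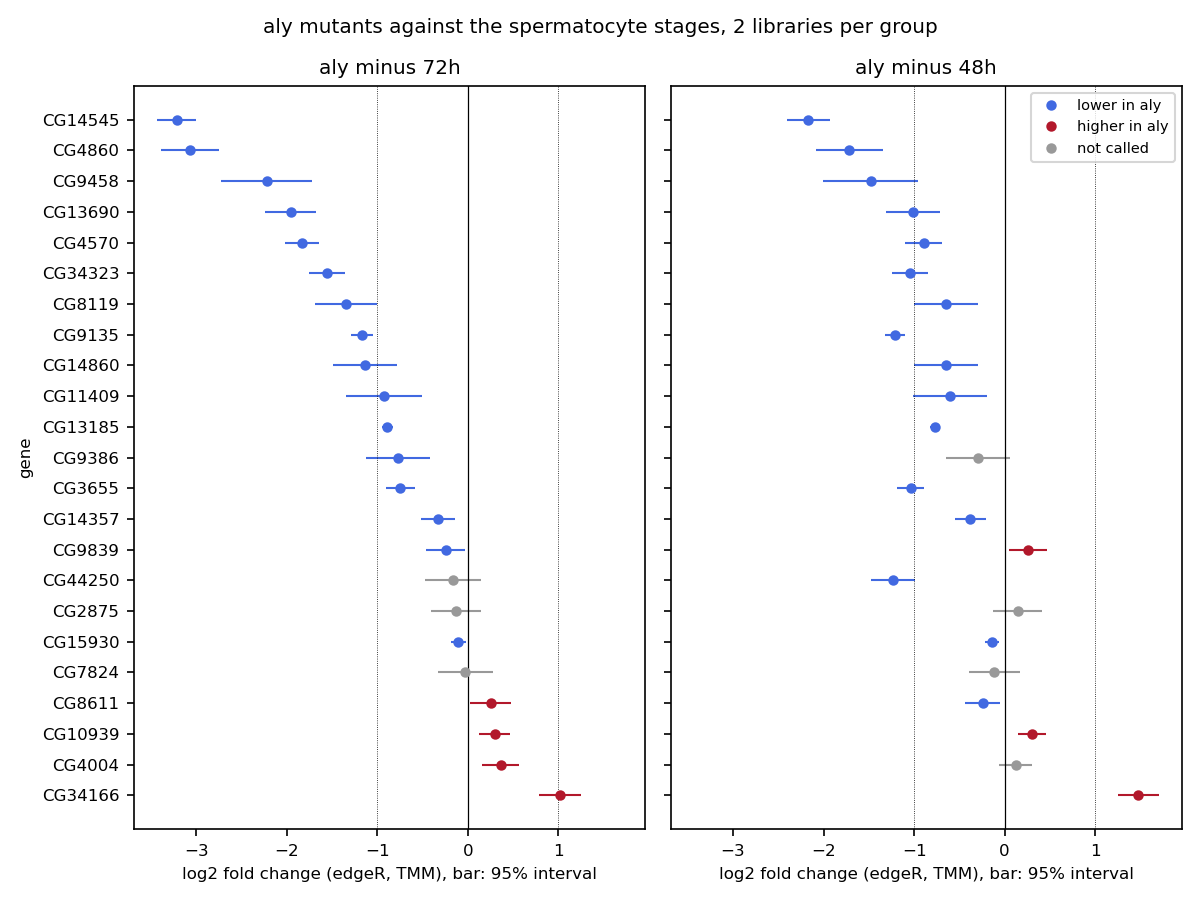
log2 fold change of each of the 23 genes in aly minus 72h (left) and aly minus 48h (right), from edgeR with TMM scaling and 2 libraries per group; bars are 95% intervals and dotted lines mark 2-fold. The points run from -3.22 (CG14545) to 1.02 (CG34166) against 72h, with most of the points left of 0.

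The order of 48h and 72h differed among the 23 genes. Both levels were capped by the choice of the genes, which leaves out genes induced at either stage, so the values are a description and nothing is read from the counts of calls. In CPM, both 72h libraries lay above both 48h libraries in 10 genes and below them in 10, and they overlapped in 3. The shares of all genes in these classes were not counted. With TMM scaling edgeR called 12 higher at 72h and 4 lower, beside 45.9% and 34.3% of all genes tested, and 2 higher and 1 lower by 2-fold or more, beside 28.8% and 7.51%. With library size alone 7 were called higher and 10 lower, beside 35.7% and 46.2% of all genes. Leaving out 1 library gave 7 to 13 higher and 3 to 9 lower, beside 37.1% to 45.3% and 32.0% to 40.9% of all genes, with the most lower without the first aly, the first bam or the second 48h library. The median log2 fold change of all genes was 0.16 with TMM and -0.16 with library size alone, so calls near 0 rest on the scaling. The genes called on the higher side under both scalings were the 7 genes CG4860, CG14545, CG13690, CG4570, CG9458, CG8119 and CG34323, and on the lower side the 4 genes CG44250, CG8611, CG3655 and CG4004. With TMM the log2 fold change at 72h over 48h was 1.35 ± 0.12 (SE) for CG4860 and 1.05 ± 0.07 for CG14545. It was -1.07 ± 0.12 for CG44250 and -0.50 ± 0.11 for CG8611. CG13185 lay at 0.12 with TMM and at -0.21 with library size alone, so its order is not settled.

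**Figure D3:**
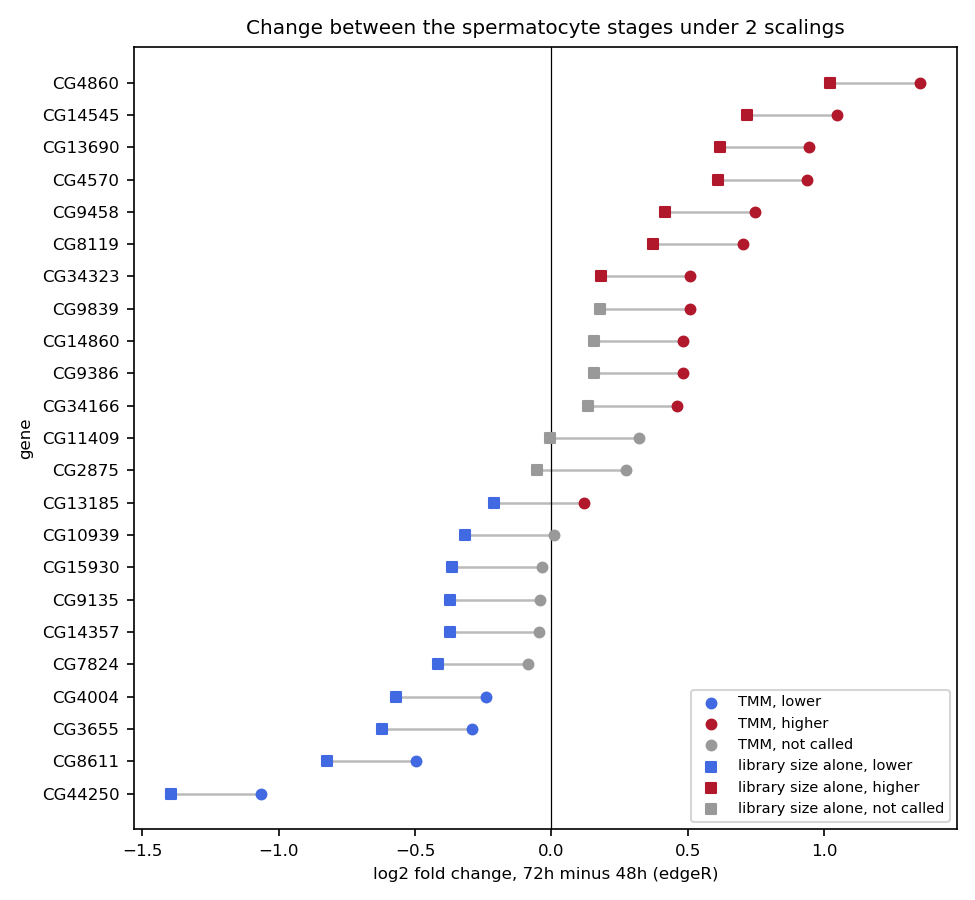
log2 fold change of the 23 genes at 72h minus 48h under TMM scaling (circles) and library size alone (squares), coloured by call at an edgeR adjusted p of 0.05. Each gene moves left by about the same amount under library size alone, and the call changes colour for the genes near 0 while CG4860 (1.35 with TMM) and CG44250 (-1.07) keep their side.

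By position, 9 of the 23 genes lay on chromosome 3R, 8 on X, 3 on 2L, 3 on 2R and 0 on 3L. Of the 1857 CG genes with a bam mean of 10 CPM or more, 25.4% lay on 3R, 19.1% on X, 17.8% on 2L, 18.8% on 2R and 18.4% on 3L. The genomic spans ran from 687 bases (CG34166) to 61856 bases (CG3655), with a median of 1713. In RefSeq 11 of the 23 spans overlap another annotated gene, and where strand was not used in counting, reads there cannot be told apart. CG8119 lies within asRNA:CR43299, an antisense transcript that averaged 13.9 CPM in aly, 0.16 CPM in bam, 18.0 CPM at 48h and 34.8 CPM at 72h. CG4860 shares 426 bases with asRNA:CR46012, which averaged 1.25 CPM in aly, 0.044 CPM in bam, 0.379 CPM at 48h and 10.2 CPM at 72h. Both antisense transcripts were thus highest at 72h, where these genes were higher than at 48h, and their part in that difference was not tested. CG9839 lies within CCT7, CG34323 within Ten-a, and CG44250 within CG44251. CG15930 shares 61 bases with CG4198, which averaged 40.7 CPM in aly, 7.43 CPM in bam, 168 CPM at 48h and 223 CPM at 72h.

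Of the nearest neighbours on either side, 25 had a bam mean of 10 CPM or more and 2 of these met the fold limit too, both named after their values were seen. Sas10, next to CG15930, averaged 11.5 CPM in aly, 61.0 CPM in bam, 15.1 CPM at 48h and 8.40 CPM at 72h. lncRNA:CR43961, next to CG34323, averaged 2.85 CPM in aly, 10.3 CPM in bam, 2.09 CPM at 48h and 2.30 CPM at 72h. Over all symbols, 122 of 6858 genes with such a bam mean met the limits. The other neighbours with such a bam mean missed the fold limit. Missing it does not make another profile, since the limits cut through a continuous range.

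ATAC-seq asked whether chromatin at these genes closes as their transcripts fall. The annotation used gives no strand, so windows of 250 bases either side of both gene ends were searched, and a gene counted as open when a deposited peak overlapped a window by 1 base or more. A peak was present in 15 of the 23 genes in aly, 15 in topi, 16 in bam, 17 at 48h, 15 at 72h and 16 for the heat shock control. The 1834 other CG genes with a bam mean of 10 CPM or more had one in 92.5%, 91.8%, 91.2%, 95.5%, 94.7% and 92.6% of cases, in the same order, against 65.2%, 65.2%, 69.6%, 73.9%, 65.2% and 69.6% of the 23 genes. With 1 list per condition there is no replicate and no test of these shares, and 15 of the 46 windows, at 12 of the 23 genes, also held the end of another gene. The lists held from 29559 peaks (aly) to 38078 peaks (topi). Their conditions had from 2 (bam and the heat shock control) to 6 (aly) ATAC-seq samples. The part of these differences in the presence or absence of peaks was not tested.

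**Figure D4:**
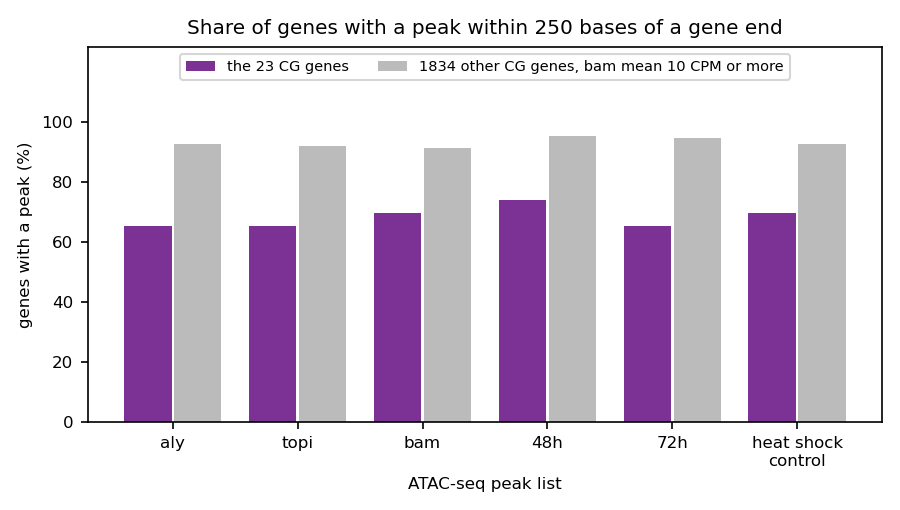
Share of genes with an ATAC-seq peak within 250 bases of a gene end in each of the 6 deposited peak lists, for the 23 CG genes and for 1834 other CG genes with a bam mean of 10 CPM or more. The 23 genes lie between 65.2% and 73.9%, and the others between 91.2% and 95.5%.

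Most genes with a peak in one list had it in the others too. A peak was present in all 6 lists for 12 genes, among them CG13185, CG14545, CG3655 and CG4860, while CG8119, CG9386, CG11409 and CG9458 had none in any list. How many of the other CG genes had a peak in all lists, or in none, was not counted. In single lists 91.2% to 95.5% of them had one. Of the 16 genes with a peak in bam, 14 also had one at 72h and 2 had none there, CG2875 and CG14860. Of the 1673 other CG genes with a peak in bam, 15 had none at 72h. Both bam peaks without a partner at 72h lay near a limit. At CG14860 the summit of the bam peak was 251 bases below the gene end, outside the window. At CG2875 the authors' -log10 q of the bam peak was 7.57, below a stricter limit of 10. No closing of chromatin is read from these genes. At CG13185 the peak at 2R:11885525-11885802 of the 72h list had an authors' fold enrichment of 12.0 at its summit, against 12.1 for the peak at 2R:11885526-11885797 of the bam list, and both summits lay 51 bases beyond the upper gene end, with no other gene end within 250 bases. At CG14860 a peak lay by the lower gene end in topi, in bam and in the heat shock control, and none was listed in aly, at 48h or at 72h. At CG2875 the fold enrichment was 9.57 in the aly list, 2.42 in topi, 2.50 in bam, 2.92 at 48h and 2.52 in the heat shock control, with no peak at 72h; fold enrichments describe a peak within its own list. Of the 11 genes whose windows held no other gene's end, 5 had a peak in all 6 lists. Peaks can still reach past a window to another gene. At CG14545, which is among these 5, the 72h peak at 3R:25851216-25852075 ran past the lower end of CG5886 at 25851632.

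**Figure D5:**
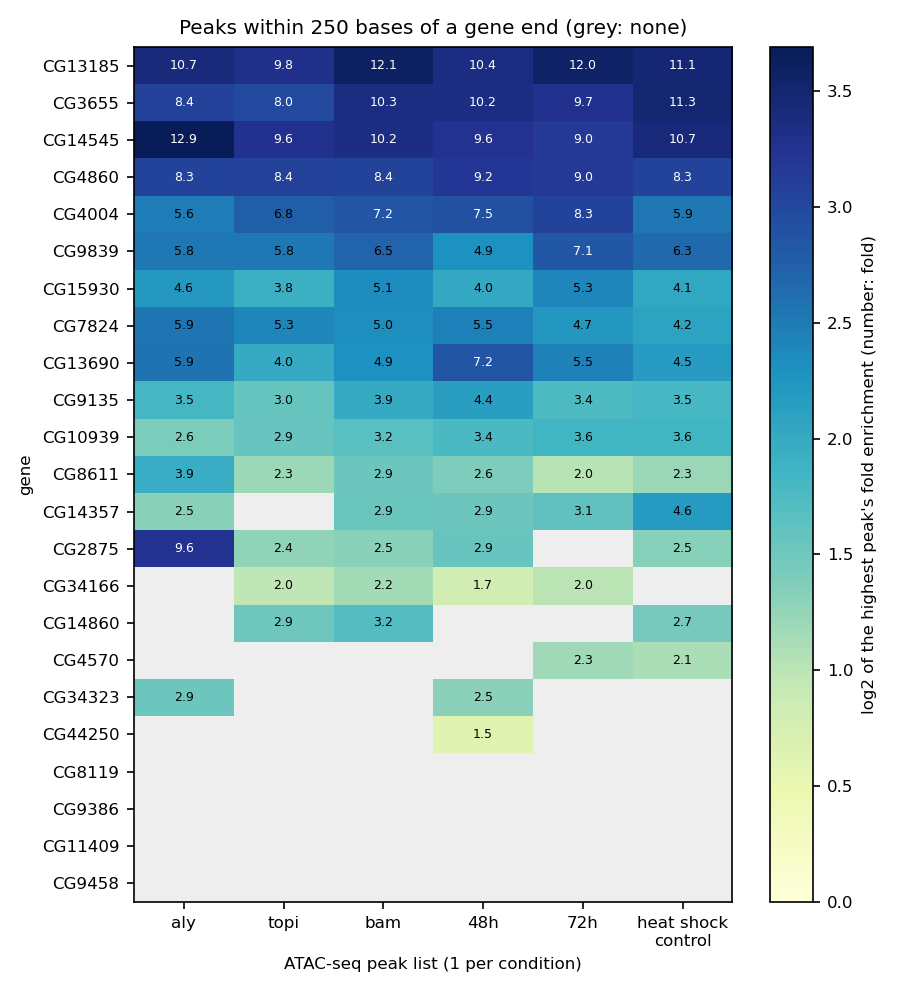
Highest fold enrichment at the summit, as given by the authors, for the 23 genes (rows) and 6 peak lists (columns). Peaks were taken when they overlapped a window of 250 bases either side of a gene end, and grey means that none was listed. The summit itself can lie outside the window, as for CG13690 at 48h (1863 bases beyond the gene end) and CG14545 at 72h (308 bases). Such values may belong to a neighbouring gene. The upper 12 genes hold a peak in every list and the lowest 4 in none.

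The deposited nucleosome maps gave few positions in the same windows. They held 34 positions at 16 of the 23 genes in aly, 35 at 18 in topi, 41 at 19 in bam, 49 at 20 at 48h, 34 at 16 at 72h and 45 at 19 for the heat shock control. The median occupancy fraction was 0.942 in aly, 0.901 in topi, 0.934 in bam, 0.864 at 48h, 0.920 at 72h and 0.871 for the heat shock control. For the other CG genes it was 0.898, 0.908, 0.921, 0.885, 0.907 and 0.920. The values for the 23 genes rest on 517, 853, 536, 1570, 958 and 816 reads in the same order, and no order of the conditions is read from them.

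Among named genes, those of ribosome assembly, DNA replication and the early germ line were followed beside the 23. The shares of all genes tested beside which these counts stand are 40.5% lower and 41.7% higher in aly than in bam, and 45.9% lower and 42.2% higher in aly than at 72h. Of 22 nucleolar ribosome biogenesis genes tested, 18 were lower and 4 higher in aly than in bam (median log2 fold change -1.08), with Nop60B, a pseudouridine synthase, 7.25-fold lower and nop5, a part of box C/D particles, 5.85-fold lower. Against 72h the same list had 18 members higher in aly and 1 lower (median 0.74), where 16 of the 23 CG genes were lower. Of 27 DNA replication genes 21 were lower and 5 higher in aly than in bam (median -1.45), with CycE, a cyclin of S phase entry, 26.3-fold lower and RnrL of ribonucleotide reductase 6.03-fold lower; against 72h 13 were higher and 11 lower, near the shares of all genes. Of 13 early germ cell genes 10 were lower and 0 higher in aly than in bam (median -1.27), with the piRNA genes piwi 9.79-fold and AGO3 4.23-fold lower; against 72h 8 were lower and 4 higher. The median of the 23 CG genes against bam, -3.26, was further from 0 than that of each of these lists, as a description, since a fall of 4 times at 48h and 72h had been asked of the CG genes alone.

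Markers of somatic cells were mostly lower in aly than in bam, beside 40.5% of all genes lower and 41.7% higher. Of 16 hub and cyst cell genes tested 12 were lower and 1 higher (median log2 fold change -1.18), with dlg1 5.34-fold and Fas3 4.73-fold lower. Of 13 fat body and hemocyte genes tested 11 were lower and 1 higher (-1.30), with the collagen genes vkg 15.0-fold and Col4a1 13.2-fold lower. Among 15 genes of the sheath muscle, 14 were lower and 1 was higher (-1.25), with Tm1 3.22-fold lower and sls 3.20-fold higher. Of 13 accessory gland and ejaculatory bulb genes 9 were lower and 1 higher (-1.53), with Ebp 73.1-fold and Acp95EF 2.90-fold lower. These folds rest on low levels, with Ebp at 0.094 CPM in aly and 6.88 CPM in bam. Acp36DE, the highest of the list, averaged 83.6 CPM in aly and 67.9 CPM in bam. The sum of the list was close in both groups, with 98.2 and 95.8 CPM in aly and 106 and 99.5 CPM in bam. Of 20 spermatocyte and spermatid genes 18 were higher and 1 lower (4.44), with S-Lap1 249-fold and topi 301-fold higher. Whether part of the signal of the 23 genes in bam testes came from somatic cells was not tested.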

How the data were processed

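The deposited RNA-seq files hold raw counts per gene identifier, without normalization, per their names and whole-number values. Per the submitters' processing notes, the tools were MACS2 2.1.1 and bedtools 2.25.0, deepTools 2.5.4, BWA 0.7.10, Trim Galore 0.4.1, and STAR in versions 2.5.4b and 2.5.1b, with genome build dm6. Their roles, the counting tool, its strand setting and the way ATAC-seq replicates were joined were not given in the sources used here. Per the labels, RNA was rRNA-depleted and libraries came from a stranded kit. The authors' peak lists give a fold enrichment ratio and a -log10 q per peak; the nucleosome maps, also deposited, hold an occupancy fraction and the count of reads behind it. CAGE clusters carry no position or gene and were not used here.

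CPM values are counts over library totals. edgeR 4.0.16 in R 4.3.3 was run on all 8 libraries (filterByExpr, TMM, quasi-likelihood F test, Benjamini-Hochberg adjustment over 13495 genes, threshold 0.05) and tested on simulated data; SE is the log2 fold change over the square root of F, and 95% intervals use the normal quantile. Symbols, names and positions came from RefSeq Release 6, which matched 23 of 23 genes; 306 of 17559 identifiers had no symbol. The genes and lists were chosen with earlier results of these data known. The naming rule took, among the 23 genes, the 10 highest in bam, the 5 largest falls, the 5 highest and 5 lowest aly/bam ratios, the 4 highest and 4 lowest 72h/48h ratios and the 3 genes either side of each limit; its part on CAGE was not used, and genes outside the rule were named after their values were seen. Of each list the 2 genes with the smallest p in aly against bam were named. Of the listed markers, those without a match in the counts were left out. Because the annotation gives no strand, ATAC-seq windows cover both gene ends, where only the start had been planned. Promoter motifs and sequences were not analysed here.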

Additional observations from a re-analysis of the deposited data

How the results depend on the processing

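The number of genes chosen was 32 with a bam minimum of 5 CPM, 17 with 20 CPM, 76 with a fold limit of 3 and 1 with a fold limit of 6; it was 22 or 23 when a library was left out, and 16 with TMM-scaled CPM. The comparison of aly with bam gave 23 lower genes under every alternative run, and 22 by 2-fold or more except without the second bam library, where it gave 23. In aly against 72h, DESeq2 called 2 higher and 0 by 2-fold or more, and leaving out a library gave 0 to 1 by 2-fold or more (0 without the second 72h library). CG15930 turned to 0.12 with library size alone. In aly against 48h, 1 gene was higher without the filter on low counts and 1 to 3 when a library was left out (1 without the first aly, the first bam or either 48h library). In 72h against 48h, the lower genes numbered 10 with library size alone, 9 without the filter and 8 with only the compared groups, and 3 to 9 when a library was left out (9 without the first aly, the first bam or the second 48h library, 7 without the first 48h library); the higher genes numbered 7 with library size alone and 7 to 13 when a library was left out (7 without the second 48h library). By 2-fold or more, 0 were lower with DESeq2 and 0 to 1 when a library was left out (0 without the second 72h library), and 4 were higher with DESeq2, 1 with library size alone, 1 without the filter, 1 with only the compared groups and 1 to 2 when a library was left out (1 without the first aly, the first bam or either 48h library). CG13185 turned to -0.21 with library size alone, -0.094 without the filter and -0.076 with only the compared groups, and ranged from -0.0801 to 0.137 when a library was left out (below 0 without the first aly, the first bam or either 48h library). The cause of these changes was not tested. Same-numbered libraries correlated at 0.097 to 0.218 in their deviations, with 2 pairs only, so the numbers were not taken to pair them; a replicate block left 12 higher and 4 lower genes in 72h against 48h and 23 lower in aly against bam. The counts of open genes moved by less than 1.5 times with wider windows, stricter peaks and a longer overlap. Planned tests of CAGE clusters were not run. In aly, 12 to 56 counts per library lay behind CG9458, CG4860, CG11409, CG8119, CG14860, CG9386, CG13690 and CG14545, which limits their folds.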
